A study of Caenorhabditis elegans with 8 samples.

Results

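The clec genes of Caenorhabditis elegans encode proteins with a C-type lectin-like domain. They were taken here as every gene row whose symbol is clec- followed by a number. This gave 264 genes out of 46928 gene rows, of which 239 were annotated as protein-coding and 25 as pseudogenes. RNA had been sequenced from cells of L4 larvae, labelled as neurons, with 4 libraries of wild-type (N2) animals and 4 of animals with the gain-of-function allele skn-1gf(lax188), each labelled as a biological replicate. Both genotypes carried the daf-7p::gfp reporter, which the labels tie to the ASI pair of chemosensory neurons, were grown on OP50 bacteria at 20 °C, and were dissociated into cells that were sorted, with DAPI as the viability stain. The labels' extraction text speaks of homogenised animals. A preparation began with about 250000 animals, so each library pools many of them.

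C-type lectin-like domains were first known from vertebrate proteins that bind sugars with the help of calcium. The family is much enlarged in nematodes, where many members are predicted to be secreted. Several clec genes of the intestine are raised on infection and serve as reporters of immune pathways, and others are active in the germline or the nervous system. SKN-1, a transcription factor of detoxification genes, acts downstream of the p38 kinase PMK-1, which also controls immune genes through the factor ATF-7.

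The libraries held between 2976889 and 10740970 counts on genes. Depth differed by genotype, with a median of 8790209 in wild type and 5071954 in skn-1gf. The shallowest were skn-1gf replicates 4 (2976889) and 3 (3622318). Wild-type replicate 2 stood apart from the rest on the first principal component and had the fewest genes detected (11909). Ribosomal RNA took 32.77% of the counts on genes in that library, against 6.90 to 21.83% in the other libraries. Protein-coding genes took 62.95% of them there, against 75.77 to 91.19% in the other libraries. The 8 ASI marker genes, none of which was at 0 in every library, took 0.00132 to 0.0201% of protein-coding counts, and 17 pan-neuronal markers took 0.0633 to 0.359%. For intestine markers this share was 0.221 to 2.52%, for body wall muscle 0.883 to 3.44%, and for the germline with oocytes 1.10 to 2.65%. The libraries therefore held RNA of many tissues, and a clec level cannot be placed in ASI neurons. In such bulk samples, fewer cells of a type and less RNA per cell cannot be told apart.

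Most of the family was barely detected or not detected. No count fell on 63 of the 264 genes in any library, and another 76 had 1 to 9 counts over all libraries together. Only 41 genes had a count in every library, and 17 had at least 10 counts in each. The fewest clec genes were detected in wild-type replicate 2 (65) and the most in wild-type replicate 1 (141). A mean level of at least 10 CPM (counts per 1000000, scaled by the TMM-adjusted library size) was reached by 21 members, and one of at least 100 CPM by 3.

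The low-count filter of the test kept 56 members, or 21.2% of the family, of which 2 were annotated as pseudogenes. Over all gene rows the filter kept 27.1%, and over protein-coding gene rows 61.2%. The 208 members that were not tested held 4.40% of all clec counts. Among them clec-230 (CELE_C29F3.5) had the highest single count, with 111 counts in wild-type replicate 2, 5 in wild-type replicate 1 and at most 4 in any other library. Each of the 56 tested members reached the filter's limit in at least 1 library of both genotypes, and 18 did so in all 8 libraries. However, clec-236 reached it in all 4 wild-type libraries but, in skn-1gf, only in replicate 1. For clec-154 the limit was reached in wild-type replicates 1, 2 and 4 and in skn-1gf replicate 4. These 2 members thus entered the test mainly through the genotype in which they were higher. Since the filter selects genes by their counts, values over tested members do not speak for the whole family.

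The members were unevenly spread over the chromosomes. Chromosome V held 96, IV 58, II 51, I 38, III 18 and X 3. The share that passed the filter was 10.4% on chromosome V and 32.8% on chromosome IV. With at most 2 other protein-coding genes allowed between neighbours, 24 runs held 3 or more members, the longest of them 15.

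Summed over the family, clec transcripts took similar shares of the RNA in both genotypes. Values per library are given here in the order of replicates 1 to 4. The protein-coding members took 0.176, 0.214, 0.141 and 0.192% of protein-coding counts in the wild-type libraries and 0.148, 0.154, 0.219 and 0.175% in the skn-1gf libraries. Exact 95% Clopper-Pearson intervals, which cover counting error only, were as wide as 0.170 to 0.180% (skn-1gf replicate 4). The genotypes overlapped over most of their range. On the CPM scale the sum was 1468 ± 479 in wild type and 1490 ± 287 in skn-1gf (SD, n = 4 libraries each). The difference of 21.6 CPM was far within the spread, and was −48.2 CPM with total-count scaling and between −139 and 237 CPM with single libraries left out.

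**Figure D1:**
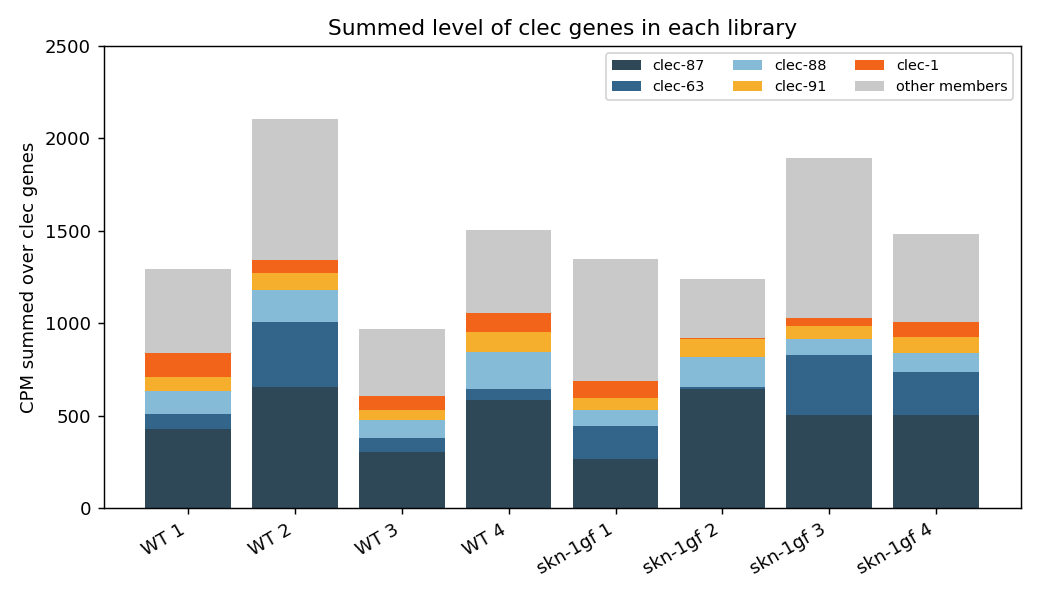
Summed level of the 264 clec genes in each library, in CPM (y axis, from 0), with the 5 members of the highest mean CPM as coloured parts of the bar and all others in grey. clec-87 is the lowest coloured part in every bar and makes up between 19.7% (skn-1gf replicate 1) and 51.9% (skn-1gf replicate 2) of it.

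A single gene, clec-87 (CELE_C25A1.8), supplied much of this sum. The wild-type libraries had 429, 652, 301 and 586 CPM of it, and the skn-1gf libraries 265, 642, 502 and 501 CPM. No other member had more counts in any library. Its log2 fold change, here as elsewhere skn-1gf minus wild type, was −0.04 with an SE of 0.35 and a 95% confidence interval from −0.79 to 0.71. Differences inside that interval could not be told from none. Of the exon bases of clec-87, 14.4% are shared with iars-2 on the opposite strand. The strand setting of the counting is not given in the sources used here, so reads from those bases could belong to either gene.

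Per kilobase of coding length, clec-87 led the family at 693 ± 208 CPM per kb (SD over 8 libraries). Its lowest library (379 CPM per kb) lay above the highest library of the next gene, clec-88 (176 ± 60.2, highest 275 CPM per kb). Then came clec-1 (147 ± 71.4), clec-63 (135 ± 104.2) and clec-91 (119 ± 27.3 CPM per kb). Within the group of 4 from clec-88 to clec-91, neighbours in the order differed by less than their spread over libraries. They were followed by clec-178 (81.8 ± 45.4), clec-145 (30.2 ± 8.52), clec-50 (30.1 ± 17.3), clec-90 (25.3 ± 9.36) and clec-264 (25.1 ± 10.5 CPM per kb). The ranges of clec-178 and clec-145 just touched, and the last 4 genes overlapped throughout. Exon bases outside the coding part were not in this length, and the order below clec-87 would change per kilobase of exon. For clec-90, only 615 of 1469 exon bases are coding.

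Some of these abundant members were also the steadiest. The SD as a percent of the mean over the 8 libraries was 22.9% for clec-91, 28.2% for clec-145, 30.1% for clec-87 and 34.1% for clec-88. For the 56 tested members the median was 88.0%, and for all genes tested it was 53.7%. Members were also less abundant than genes in general, with a median mean level of 5.61 against 18.8 CPM.

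Per library, clec-88 (CELE_K10B2.3) was at 122.1, 173, 97.5 and 200.5 CPM in wild type and at 86.4, 161, 88.1 and 99.6 CPM in skn-1gf, for a log2 fold change of −0.45 (SE 0.32). For clec-91 (CELE_ZK858.3) the values were 75.3, 90.7, 51.7 and 108 CPM in wild type and 65.7, 94.6, 68.0 and 89.5 CPM in skn-1gf, for a log2 fold change of −0.04 (SE 0.30). For clec-88, wild-type replicates 2 and 4 lay above every skn-1gf library and skn-1gf replicates 1 and 3 below every wild-type library, with the others between. For clec-91 all skn-1gf values lay inside the wild-type range. The genotypes also overlapped throughout for clec-145 (CELE_Y48E1B.16), at 31.7 ± 6.43 and 32.5 ± 12.2 CPM, which shares 16.7% of its exon bases with Y48E1B.8 on the opposite strand. None of these differences was separated from the replicate spread. The sign of the near-zero values of clec-87, clec-91 and clec-145 turned with single libraries left out.

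A wider spread was seen for clec-1 (CELE_F25B4.9), which was at 132, 70.97, 77.9 and 103 CPM in wild type and at 90.2, 9.46, 43.2 and 83.1 CPM in skn-1gf. Its lowest value was that of skn-1gf replicate 2, without which the log2 fold change went from −0.77 (SE 0.53) to −0.42. For clec-50 (CELE_W04E12.8) the levels were 23.2 ± 8.13 and 34.8 ± 22.2 CPM, and for clec-264 (CELE_F31D4.4) 23.9 ± 12.97 and 34.3 ± 10.3 CPM. Neither separated the genotypes. Like clec-1, both clec-63 and clec-50 were lowest in skn-1gf replicate 2, at 14.99 and 5.27 CPM. In that library the summed germline and oocyte markers were at 12535 CPM, inside their range of 7854 to 22859 CPM over all libraries. Markers of intestine (1777 CPM), body wall muscle (7092), hypodermis (274), pharynx (130), neurons in general (508) and glia (158 CPM) were each lowest there. Those of sperm and ASI were not, and coelomocyte markers were highest there (632 CPM). The part of these tissues in the clec values was not tested.

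**Figure D2:**
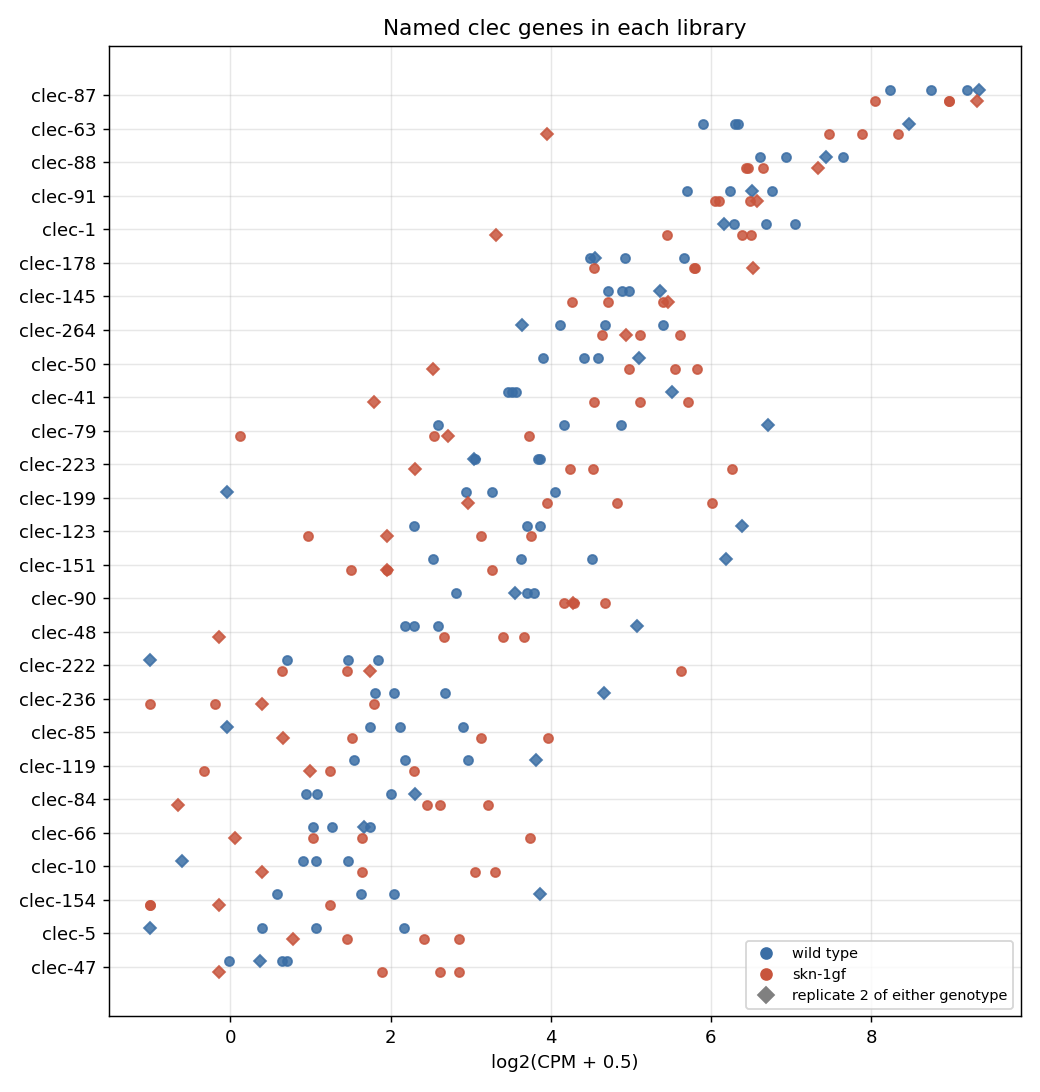
Levels of the 27 named clec genes that were tested, one row per gene, as log2(CPM + 0.5) on the x axis, with 1 point per library. Wild-type libraries are blue and skn-1gf libraries red, and diamonds mark replicate 2 of either genotype; only clec-90 has all red points to the right of all blue ones and only clec-236 has all red points to the left.

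The comparison of the genotypes asks which transcripts differ when SKN-1 is constitutively active. Of the 56 clec genes 0 passed an adjusted p of 0.05 in edgeR's quasi-likelihood test, as did 0 of the 12734 genes in the fit (0.0%). The adjusted p was 0.999989 for every clec gene in edgeR. At an unadjusted p under 0.05 there were 6 clec genes, 1 higher and 5 lower in skn-1gf. Among all genes tested 4.07% lay under that limit, 1.44% higher and 2.62% lower. The members with small p were therefore mostly lower in skn-1gf. DESeq2, run without the filter, called 3 genes (0.0124%) and none was a clec gene. Without the low-count filter edgeR called 159 genes (0.645%), of which 1 was a clec gene, clec-79.

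As a description, 37 of the 56 log2 fold changes were above 0 and 19 below, and their median was 0.51. Over all genes tested, 53.7% were above 0 and 46.3% below, and the median was 0.04. The quartiles of the members were −0.17 and 1.19, against −0.31 and 0.41 for all genes. A difference of more than 1 log2 unit in either direction was seen in 23 members, 16 higher and 7 lower, or 41.1% of those tested, against 18.9% of all genes. The median rested in part on skn-1gf replicate 3, without which it was 0.15. Leaving out both libraries numbered 2 raised it to 0.88.

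Precision was low for these genes. The median 95% interval of a clec log2 fold change reached 2.26 to either side, while that of all genes tested reached 1.44. A 2-fold difference in a typical member was thus not detectable at this depth and spread.

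**Figure D3:**
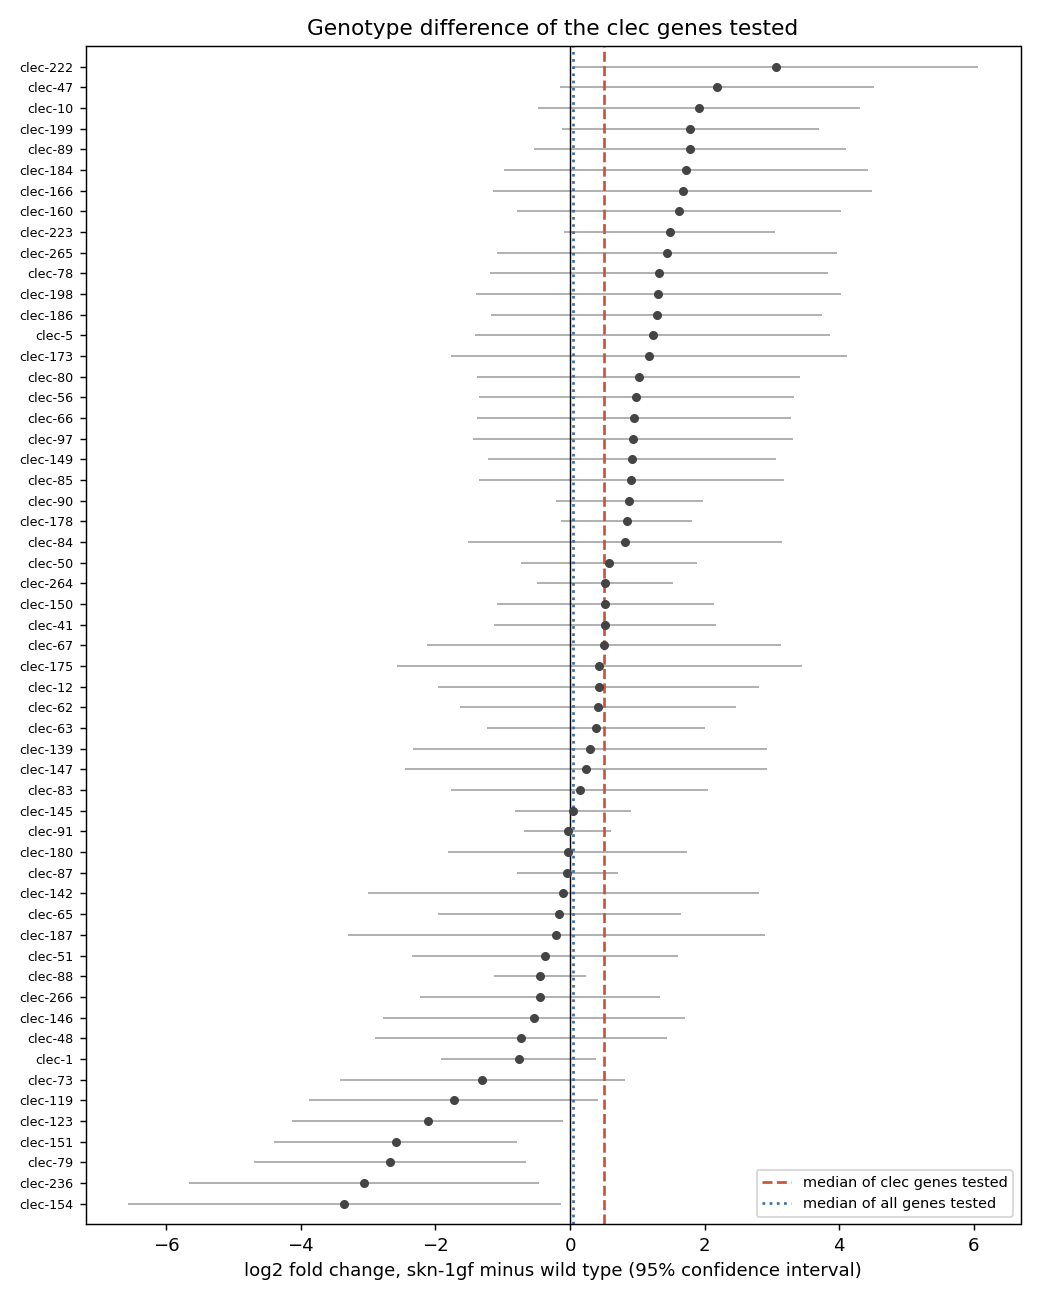
Log2 fold change (skn-1gf minus wild type) of the 56 clec genes tested, ordered by value, with the 95% confidence interval of the edgeR fit as bars. The dashed red line is the median of the clec genes (0.51) and the dotted blue line that of all genes tested (0.04); 6 of the 56 intervals lie wholly on one side of 0, and none passed after adjustment.

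Libraries of the genotypes did not overlap in 2 of the 56 members, 1 with skn-1gf above and 1 below. Among all genes tested this was so for 2.17%, 1.01% with skn-1gf above and 1.15% below. The member above was clec-90 (CELE_F57C9.2), at 12.6, 11.2, 13.3 and 6.56 CPM in wild type and at 17.5, 18.9, 25.1 and 19.1 CPM in skn-1gf. Each skn-1gf library was higher than each wild-type library, and the log2 fold change was 0.88 with an SE of 0.50 (interval −0.21 to 1.98). It stayed between 0.70 and 0.99 with single libraries left out. With total-count scaling the separation was lost. It shares 4.02% of its exon bases with glo-2 on the same strand.

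The member below was clec-236 (CELE_Y70C5C.5), annotated as a pseudogene. The wild-type libraries had 34, 158, 21 and 73 counts of it and the skn-1gf libraries 25, 6, 0 and 1, or 9.37 ± 10.5 and 1.04 ± 1.32 CPM. The separation was narrow, with 2.98 CPM in wild-type replicate 3 and 2.96 CPM in skn-1gf replicate 1. As the gene passed the low-count filter mainly through its wild-type counts, its lower values in skn-1gf are not independent of that selection. Its log2 fold change was −3.06 (SE 1.20), and −1.92 without wild-type replicate 2. Reads that align to several places were not assigned to genes, so the counts of a pseudogene with close copies are uncertain.

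The 6 members with the smallest p among those with lower values in skn-1gf had their highest library in common, but not the rest of their order. For clec-151 (CELE_F10F2.7), the smallest p of the family, levels were 11.9, 72.2, 5.25 and 22.4 CPM in wild type and 9.11, 3.38, 2.33 and 3.37 CPM in skn-1gf. The log2 fold change was −2.59 with an SE of 0.83 (unadjusted p = 0.00858, adjusted p = 0.999989 in edgeR). For clec-79 (CELE_F47C12.4) they were 17.4, 104.2, 5.54 and 29.0 CPM in wild type and 5.32, 6.08, 0.584 and 12.7 CPM in skn-1gf, a log2 fold change of −2.67 (SE 0.93). In both genes wild-type replicate 2 was by far the highest, wild-type replicate 4 the next, and wild-type replicate 3 lay within the range of skn-1gf. The other members were clec-123 (28.5 ± 36.6 and 6.52 ± 5.18 CPM), the pseudogene clec-154 (5.32 ± 5.93 and 0.569 ± 0.889 CPM), clec-119 (6.83 ± 4.94 and 2.01 ± 1.72 CPM) and clec-236. All 6 were highest in wild-type replicate 2. Next came wild-type replicate 4, except for clec-154, where wild-type replicate 1 (3.62 CPM) lay above it (2.59 CPM). Among skn-1gf libraries, clec-79 and clec-154 were highest in replicate 4 and the others in replicate 1. These members were picked for lower values in skn-1gf, so a peak in a wild-type library follows largely from that choice.

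Without that library the log2 fold change of clec-151 was −1.53, that of clec-79 −1.48, that of clec-123 (CELE_Y25C1A.1) −0.67 in place of −2.11, that of clec-154 (CELE_F10F2.5) −2.24 in place of −3.35 and that of clec-119 (CELE_F47F6.5) −1.17 in place of −1.73. Summed markers of sperm were also highest in wild-type replicate 2 and next in wild-type replicate 4. The summed level of 28 sperm marker genes was 759, 3723, 327 and 2255 CPM in the wild-type libraries and 799, 562, 103.6 and 771 CPM in the skn-1gf libraries, and none of the markers was at 0 throughout. All 25 of these markers that were tested had lower values in skn-1gf, with a median log2 fold change of −1.70, and none passed after adjustment in edgeR. Summed hypodermis markers had the same order in wild type, at 933, 2153, 625 and 1032 CPM. In skn-1gf they were at 1129, 274, 782 and 889 CPM. Of the 15 hypodermis markers tested, 11 had lower values, and the median was −0.60. Other immune effector genes, summed, were highest in wild-type replicate 2 as well (1737 CPM). The peak in that library was thus not particular to sperm. The part of RNA from sperm or another tissue in the values of these clec genes was not tested.

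**Figure D4:**
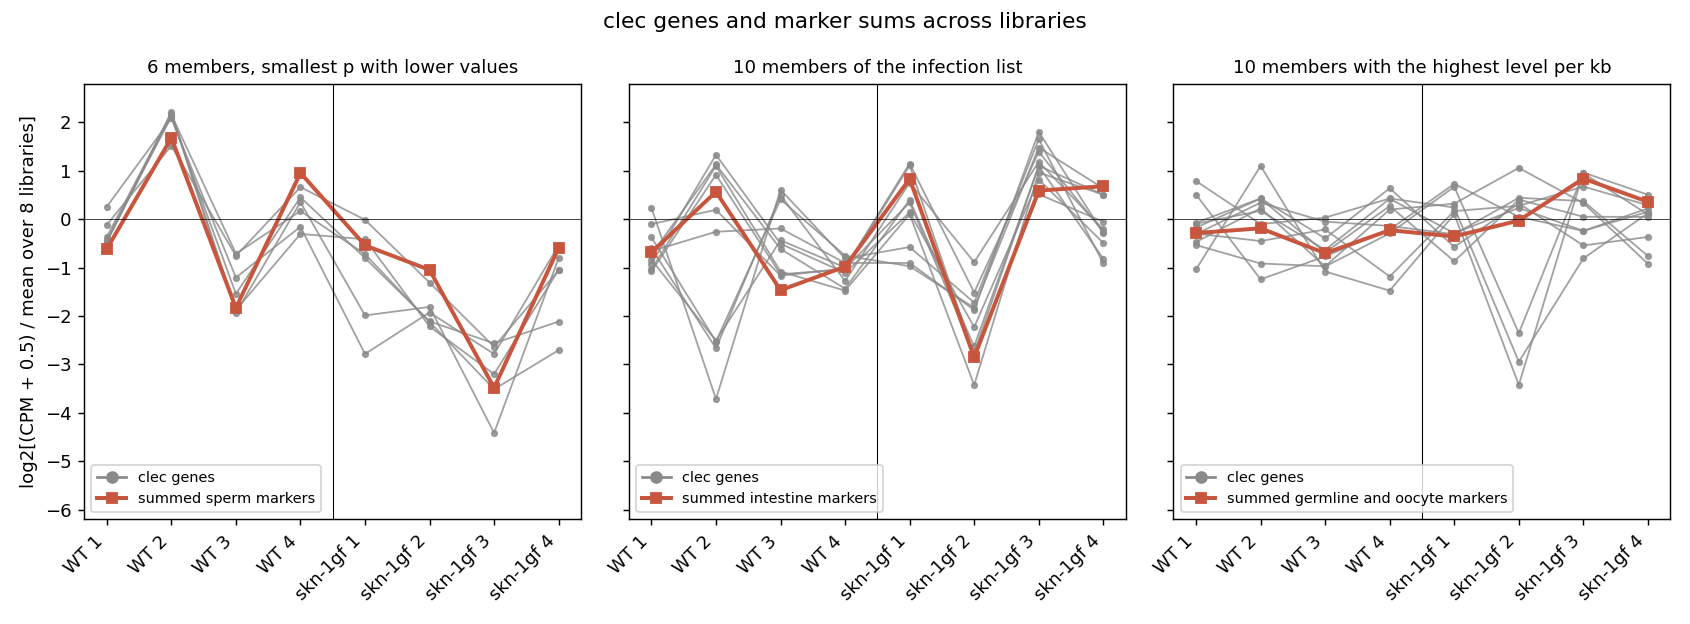
Level of clec genes (grey lines, 1 per gene) and of summed marker genes (red) in each library, as log2 of (CPM + 0.5) over the mean of (CPM + 0.5) across the 8 libraries. The left panel sets the 6 members with the smallest p and lower values beside 28 sperm markers. The middle panel sets the 10 tested members of the infection list beside 17 intestine markers, and the right panel the 10 members of the highest level per kilobase beside 22 germline and oocyte markers. The grey lines of the left panel peak with the sperm markers in wild-type replicate 2. Those of the middle panel are lowest, among skn-1gf libraries, in replicate 2, as are the intestine markers. In wild-type replicate 2, where the intestine markers are at their wild-type maximum, clec-5, clec-10, clec-67 and clec-85 are at their lowest of all libraries.

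Among members with higher values in skn-1gf, the smallest p belonged to clec-222 (CELE_C03E10.6). It was at 3.09, 0, 2.27 and 1.13 CPM in wild type and at 1.06, 2.84, 49.02 and 2.25 CPM in skn-1gf. The log2 fold change was 3.06 with an SE of 1.38 (unadjusted p = 0.0464, adjusted p = 0.999989 in edgeR). The mean rested on skn-1gf replicate 3, without which the log2 fold change was 0.33. The neighbouring gene clec-223 (CELE_C03E10.5) was also highest there, at 14.04, 7.75, 7.81 and 13.8 CPM in wild type and 22.6, 4.46, 76.2 and 18.3 CPM in skn-1gf. Its log2 fold change was 1.48 (SE 0.72), and 0.47 without skn-1gf replicate 3.

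Another member with its peak in that library, clec-199 (CELE_C30H6.1), was at 9.15, 0.474, 16.04 and 7.21 CPM in wild type and 27.9, 7.29, 63.9 and 14.97 CPM in skn-1gf. Its log2 fold change of 1.79 (SE 0.88) was 0.97 without skn-1gf replicate 3. Markers of the pharynx, of ASI neurons, of glia and of the germline with oocytes were highest in the same library, as were summed immune regulator genes. Summed pharynx markers were at 285 to 955 CPM in wild type and at 1006, 130, 3218 and 410 CPM in the skn-1gf libraries. Summed ASI markers were at 10.3 to 29.0 CPM in wild type and at 90.6, 11.1, 174 and 53.2 CPM in skn-1gf, and glia markers at 162 to 313 and 158 to 797 CPM. Germline and oocyte markers were at 7854 to 11215 CPM in wild type and at 9983 to 22859 CPM in skn-1gf. For the immune regulators the sums were 1526 to 3037 and 1434 to 4951 CPM. Their part in the clec values was not tested.

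A different order was seen for clec-47 (CELE_T09F5.9), with 10, 5, 8 and 6 counts in wild type and 57, 3, 11 and 15 counts in skn-1gf. It was above every wild-type library in skn-1gf replicates 1, 3 and 4 and below them in replicate 2, for a log2 fold change of 2.18 (SE 1.07). At these counts the CPM values were 0.869 ± 0.296 and 3.99 ± 2.81. Without skn-1gf replicate 1 it no longer passed the filter.

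The gene next to skn-1, clec-178 (CELE_T19E7.1), was at 30.002, 22.9, 22.004 and 50.2 CPM in wild type and at 54.7, 91.6, 55.1 and 22.8 CPM in skn-1gf. Of the skn-1gf libraries, replicates 1 to 3 lay above every wild-type library and replicate 4 among them. The log2 fold change was 0.84 with an SE of 0.45 and an interval from −0.13 to 1.82. Without skn-1gf replicate 2 the value was 0.49, and with both libraries numbered 2 left out it was 0.37. The RefSeq gene spans of clec-178 and skn-1 overlap, but no exon base is shared in the Ensembl annotation. For skn-1 itself the level was 295 ± 108 and 307 ± 68.6 CPM, with a log2 fold change of 0.06 (SE 0.31).

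The infection list holds 25 clec genes known to be raised on bacterial infection or to act in defence, and 10 of them were tested. None passed the test. The log2 fold change was above 0 in 9 and below 0 in 1, and their median was 0.67, against 0.04 over all genes tested. Others were below the filter. The Staphylococcus response genes clec-60 and clec-61 had 9 and 3 counts over all libraries. Of the pair that acts in resistance to Serratia, clec-39 had 3 counts, and clec-49 had 87, with up to 35 in 1 library.

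The most abundant member of the list was clec-63 (CELE_F35C5.6), an intestinal gene raised by Serratia infection. It was at 80.6, 356, 78.2 and 59.4 CPM in wild type and at 178, 14.99, 324 and 236 CPM in skn-1gf. The log2 fold change was 0.39 with an SE of 0.74 (interval −1.23 to 2.01). Apart from the libraries numbered 2, each skn-1gf value was above each wild-type value. Wild-type replicate 2 was the highest of all libraries and skn-1gf replicate 2 the lowest. With both libraries numbered 2 left out the log2 fold change was 1.75, and the adjusted p of 0.183 in edgeR was the smallest of the family in that setting. Without skn-1gf replicate 3 alone the log2 fold change was 0.03. Over all its alternatives the adjusted p ran from 0.183 to 0.999938.

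A like order was seen for clec-41 (CELE_B0365.6), whose product is known to act against Bacillus thuringiensis. It was at 10.96, 45.2, 10.5 and 11.3 CPM in wild type and at 51.8, 2.97, 34.1 and 22.8 CPM in skn-1gf. Its log2 fold change of 0.52 (SE 0.76) was 1.73 without both libraries numbered 2 and 0.09 without skn-1gf replicate 1. The list also holds clec-10 (1.35 ± 0.881 and 5.14 ± 4.08 CPM), clec-84 (2.74 ± 1.46 and 4.87 ± 3.56 CPM) and clec-5 (1.60 ± 1.72 and 3.76 ± 2.49 CPM). For clec-85 (CELE_Y54G2A.6), which is controlled by the PMK-1 pathway, levels were 3.52 ± 2.69 and 6.71 ± 6.44 CPM, for a log2 fold change of 0.91 (SE 1.04), and of 0.09 without skn-1gf replicate 3. In wild-type replicate 2 the list split, with clec-5, clec-10, clec-67 and clec-85 at 0 to 0.474 CPM while clec-41, clec-63, clec-65, clec-83 and clec-84 were at their wild-type maximum. In the annotation clec-85 shares 27.7% of its exon bases with Y54G2A.40 on the same strand. The values of clec-66 (CELE_F35C5.9) were 2.24 ± 0.621 and 4.38 ± 5.70 CPM, with 12.8 CPM in skn-1gf replicate 3, and its log2 fold change turned from 0.95 to −0.54 without that library.

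The sum of intestine markers moved across libraries with the most abundant genes of this list. Single markers did not all go one way. Of the 16 tested, 11 had higher and 5 lower values in skn-1gf, and their median log2 fold change was 0.54. The summed level of 17 intestine markers, none of them at 0 throughout, was 7989, 19015, 4651 and 6508 CPM in the wild-type libraries and 22877, 1777, 19344 and 20582 CPM in the skn-1gf libraries. The summed infection list was at 131, 473, 145 and 97.5 CPM in wild type and at 291, 28.2, 517 and 305 CPM in skn-1gf. Both sums were highest, among wild-type libraries, in replicate 2 and lowest, among all libraries, in skn-1gf replicate 2. The same held for summed body wall muscle markers, at 23668 CPM in the former library and 7092 CPM in the latter. It held too for hypodermis (2153 and 274 CPM) and glia (313 and 158 CPM), so the order was not particular to the intestine. It did not hold for markers of sperm, germline with oocytes, pharynx, neurons, ASI or coelomocytes. The part of RNA from the intestine or another tissue in the clec values was not tested.

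Of the pair of clec genes tied to axon guidance through the netrin receptor UNC-40, clec-38 had 1 count in all libraries together. The other, clec-48 (CELE_C14A6.1), was at 5.53, 33.2, 4.40 and 4.05 CPM in wild type and at 12.2, 0.405, 5.84 and 10.1 CPM in skn-1gf. The log2 fold change of −0.72 (SE 1.00) turned to 0.57 without wild-type replicate 2.

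The libraries in which clec genes peaked were counted as a description. Of the 56 members, 21 (37.5%) had their highest level in skn-1gf replicate 3, where 15.1% of all genes tested had theirs. That library was shallow (3622318 counts on genes), and some of these peaks rest on few counts, such as 13 for clec-166. The lowest level was in wild-type replicate 2 for 22 members (39.3%, against 35.8% of all genes) and in skn-1gf replicate 2 for 18 members (32.1%, against 17.5%). Only 2 members were highest in skn-1gf replicate 2, or 3.57%, against 22.7% of all genes. The highest level was in wild-type replicate 2 for 13 members (23.2%, against 24.7%) and in skn-1gf replicate 1 for 11 (19.6%, against 17.5%). It was in wild-type replicates 1, 3 and 4 and skn-1gf replicate 4 for 2, 0, 4 and 3 members, where 2.77, 6.49, 7.54 and 3.22% of all genes were highest. In 0 of the members did 1 library hold at least 80% of the CPM summed over libraries, against 0.118% of all genes. With both libraries numbered 2 left out, 20 of 65 tested members (30.8%) did not overlap between genotypes, 19 of them with skn-1gf above. Over all 13090 genes tested in that setting 19.3% did not overlap, 8.89% with skn-1gf above and 10.4% below. No gene passed the adjusted test there, and the choice of these libraries for removal followed from earlier results on the same data.

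The members lie in runs along the chromosomes, and 5 runs of 3 or more held at least 2 tested genes. In the run of clec-62 to clec-66 on chromosome II, the 4 tested genes had log2 fold changes from −0.16 (clec-65) to 0.95 (clec-66). In clec-82 to clec-85 on chromosome IV the 3 tested genes lay between 0.14 and 0.91, and clec-198 and clec-199 of the run clec-197 to clec-202 were at 1.31 and 1.79. The tested genes of the run clec-151 to clec-154 on chromosome III were both below 0. The 13-member run from clec-67 to clec-79 on chromosome IV was mixed, with clec-67 at 0.50, clec-73 at −1.30 and clec-79 at −2.67. Neighbours of one cluster can share sequence, and reads aligning to several places were left out of the counts.

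The regulators and other effectors of immunity showed no called difference either. Of 26 regulators 25 were tested, 19 above and 6 below 0 in log2 fold change, and their median was 0.39. The smallest p was that of zip-2 (CELE_K02F3.4), a bZIP factor of the infection response, at 339 ± 94.2 and 668 ± 539 CPM, a log2 fold change of 0.98 (SE 0.51). It was followed by atf-7 (184 ± 39.9 and 241 ± 44.0 CPM), the phosphatase gene vhp-1 (146 ± 41.7 and 232 ± 155 CPM) and the SMAD gene sma-2 (7.97 ± 8.34 and 3.65 ± 2.36 CPM).

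Of 57 other effectors 31 were tested, 20 with a positive and 11 with a negative value, and the median was 0.21. The effector with the smallest p, dod-24 (CELE_C32H11.12), was at 4.89, 11.4, 9.37 and 0.729 CPM in wild type and at 72.9, 2.702, 24.2 and 27.7 CPM in skn-1gf, for a log2 fold change of 2.28 (SE 0.93). Its skn-1gf replicates 1, 3 and 4 were above every wild-type library and skn-1gf replicate 2 lay among them. The list further gave dod-23 (13.7 ± 4.03 and 32.3 ± 26.2 CPM), the saposin-like gene spp-14 (41.8 ± 12.9 and 82.96 ± 51.8 CPM) and the lysozyme gene lys-6 (0.528 ± 0.618 and 2.55 ± 1.85 CPM). None of these passed the test.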

How the data were processed

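The deposited files hold raw counts of reads per gene, with 1 file for each library. Of the tools, HTSeq 2.0.2 and STAR 2.7.6a are listed in the submitters' processing notes, as are R 3.5.2, DESeq2 and, as the build, ce10. Symbols came from a RefSeq table of the assembly WBcel235 by locus tag (46919 of 46928 rows). Exon overlap and coding length came from the Ensembl annotation of WBcel235, and no coordinates are given because the builds differ by name. Summary lines were left out of all totals, and among them multiply aligned reads made up 12.3 to 30.3% of all reads in the file. The labels call the libraries biological replicates but do not name separate cultures, so p-values measure the spread between these libraries.

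edgeR 4.0.16 (R 4.3.3, quasi-likelihood test on genotype, filterByExpr at minimum count 10 and total 15, TMM) was fitted on all genes, with Benjamini-Hochberg adjustment and a threshold of 0.05. The fit was also run on simulated counts with known fold changes. The simulation held no outlying library and no difference in tissue content, so it says nothing on how the fit handles these. Pairs of values with ± are the mean and SD of CPM over the 4 wild-type and then the 4 skn-1gf libraries. Alternatives were DESeq2 1.42.0, other scalings and filters, protein-coding genes only, the replicate block and libraries left out.

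The clec genes and all lists were chosen with earlier results of these data known, and lists were written from general knowledge. Members were named if they passed the test, did not overlap between genotypes, had 1 of the 6 smallest p in a direction, 1 of the 10 highest levels per kb, 1 of the 6 smallest p in the infection list, a role in axon guidance, at least 80% of their CPM in 1 library (none), or at least 100 counts in a library without being tested. Runs of clec genes allowed 2 other genes between neighbours.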

Additional observations from a re-analysis of the deposited data

Results flagged for a closer look

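Within each genotype, the library farthest from the others was compared with the range of the 4 libraries. This was done for the 27 named members that were tested and for the summed clec level, in both genotypes, and the gap was wide enough in 8 of these 56 sets. For normally distributed values chance flags about 1 in 20 sets. The CPM values were not log-transformed, and all 8 flags were on the high side. Many members were also named for their small p or for lack of overlap. For both reasons the number flagged cannot be read against that rate. In wild-type replicate 2, clec-63 was at 356 CPM (59.4 to 80.6 in the others), clec-41 at 45.2 CPM (10.5 to 11.3), clec-48 at 33.2 CPM (4.05 to 5.53), clec-123 at 82.98 CPM (4.40 to 14.1) and clec-236 at 24.97 CPM (2.98 to 5.91). In skn-1gf replicate 3, clec-222 was at 49.02 CPM (1.06 to 2.84 in the others) and clec-66 at 12.8 CPM (0.540 to 2.62). In skn-1gf replicate 1, clec-151 was at 9.11 CPM (2.33 to 3.38). These sets share libraries and are not independent.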

How the results depend on the processing

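No clec gene was called in any setting except clec-79 without a low-count filter (1 clec gene and 159 genes in all called, log2 fold change −2.65, adjusted p = 0.0101 in edgeR; 0.0101 to 0.999938 over its alternatives). DESeq2 called 3 genes and no clec gene. Without a filter 115 of 201 detected members (57.2%) were above 0 and 86 below, and with DESeq2 60.7% of the same number were above 0. The median log2 fold change of tested members was 0.88 with both libraries numbered 2 left out, and 0.148 to 0.591 with single libraries left out. Members without overlap numbered 1 with total-count scaling and with protein-coding genes only, where the pseudogene clec-236 is not counted, 20 with both libraries numbered 2 left out, and 3 to 12 with single libraries left out (12, or 17.9% against 9.68% of all genes, without skn-1gf replicate 2; 6, or 9.38% against 6.61%, without wild-type replicate 3; 4.62 to 6.45% against 2.97 to 4.90% in the rest). Of 27 named members tested, 22 kept their sign throughout. With single libraries left out, log2 fold changes ran from −0.23 to 0.21 for clec-87, −0.20 to 0.13 for clec-91, −0.15 to 0.25 for clec-145, −0.54 to 1.32 for clec-66 and −1.06 to 0.57 for clec-48. clec-48 was at 1.00 with both libraries numbered 2 left out, and clec-145 at −0.024 with total-count scaling and −0.022 with the replicate block. The cause was not tested. Same-numbered libraries of the 2 genotypes correlated at −0.01 to 0.51 in their deviations from the genotype means, so the numbers were not taken as pairs; the replicate block left 0 genes called and a median of 0.60. Total-count scaling moved the median of all genes to −0.12 and the share of clec genes above 0 from 66.1 to 62.5%. Of the untested members, 53 reached 10 counts in a library.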
